A study of Mus musculus with 19 samples.

Results

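The 52 genes described here are 25 genes of glycolysis, 6 of gluconeogenesis and 21 of the pyruvate dehydrogenase complex and the tricarboxylic acid (TCA) cycle. They were chosen by gene symbol from the 54532 genes of the count table, by a rule that uses no measured value but was set with earlier results of these data known, and the 3 pathways are counted apart. Aldoa was listed on 2 rows, so that glycolysis had 26 rows and all members together 53. RNA was sequenced from the obstructed kidney of 19 male C57BL/6J-background mice, 8–9 weeks old, on day 12 after unilateral ureteral obstruction (UUO), in which the left ureter is tied off and the kidney behind it scars. Cd5l encodes CD5L (also called AIM), a protein that macrophages release into blood. The groups were WT mice given PBS (n = 5), WT mice given recombinant CD5L (rCD5L, n = 5), CD5L KO mice given PBS (n = 4) and CD5L KO mice given rCD5L (n = 5). Every group had the obstruction, and no kidney without it was analysed here. PBS or 0.5 mg rCD5L per mouse was injected into the abdomen every day. The protein was made outside the mouse and leaves no transcript of its own in the kidney. The labels give each kidney as a biological replicate, and by the study's methods the mice were given PBS or rCD5L without formal randomisation. Each library holds a whole kidney, so fewer cells of a type and less RNA per cell cannot be told apart in any result below.

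Glycolysis splits glucose to pyruvate in the cytosol, and lactate dehydrogenase turns pyruvate to lactate and back. Gluconeogenesis runs the other way, past the irreversible steps, through pyruvate carboxylase (Pcx), phosphoenolpyruvate carboxykinase (Pck1, Pck2), fructose bisphosphatase (Fbp1, Fbp2) and glucose 6-phosphatase (G6pc). In mitochondria the pyruvate dehydrogenase complex feeds acetyl groups to the TCA cycle. In the kidney, glucose is made in the proximal tubule, which itself burns mainly fatty acids, while the distal nephron and the medulla use glucose.

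The 5 promoters below show the DNA next to the genes on which the results turn, Pck1, Fbp1 and Pcx because their transcripts were highest in the same kidney, and Ldhb and Eno2 because they were called in opposite directions between the genotypes. The sequences are from RefSeq (GRCm38.p6), read 5′ to 3′ in the direction of the gene, and end just before the start of the gene as annotated in the count table. Capitals mark the letters ACGTG, the core of hypoxia response elements, and TGACG, part of a cAMP response element, on either strand. The windows lie at chr2:173152823-173153047, plus strand, for Pck1, at chr13:62888283-62888532, minus strand, for Fbp1, at chr19:4510222-4510471, plus strand, for Pcx, at chr6:142507958-142508207, minus strand, for Ldhb, and at chr6:124769674-124769923, minus strand, for Eno2.
Pck1: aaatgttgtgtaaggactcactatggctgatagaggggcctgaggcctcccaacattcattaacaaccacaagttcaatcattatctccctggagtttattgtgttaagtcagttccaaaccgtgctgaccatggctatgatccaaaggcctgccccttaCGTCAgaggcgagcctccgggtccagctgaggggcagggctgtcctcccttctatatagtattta
Fbp1: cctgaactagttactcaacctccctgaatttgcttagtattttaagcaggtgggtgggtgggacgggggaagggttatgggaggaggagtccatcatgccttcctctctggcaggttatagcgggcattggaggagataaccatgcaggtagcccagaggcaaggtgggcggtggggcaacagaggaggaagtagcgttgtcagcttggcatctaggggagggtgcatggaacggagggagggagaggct
Pcx: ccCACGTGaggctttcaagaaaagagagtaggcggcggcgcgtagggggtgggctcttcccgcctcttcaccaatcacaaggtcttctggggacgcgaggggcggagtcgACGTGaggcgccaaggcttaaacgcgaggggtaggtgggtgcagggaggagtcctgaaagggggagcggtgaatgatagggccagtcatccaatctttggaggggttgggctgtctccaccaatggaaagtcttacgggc
Ldhb: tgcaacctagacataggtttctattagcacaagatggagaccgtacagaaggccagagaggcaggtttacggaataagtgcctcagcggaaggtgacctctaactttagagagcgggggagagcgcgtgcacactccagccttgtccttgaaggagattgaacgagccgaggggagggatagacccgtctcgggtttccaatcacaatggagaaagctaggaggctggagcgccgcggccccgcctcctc
Eno2: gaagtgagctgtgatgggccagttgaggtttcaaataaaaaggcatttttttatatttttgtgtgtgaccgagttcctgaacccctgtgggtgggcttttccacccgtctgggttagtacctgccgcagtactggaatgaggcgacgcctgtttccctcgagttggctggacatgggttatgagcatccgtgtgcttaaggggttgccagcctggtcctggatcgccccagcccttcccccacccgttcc
The printed Pck1 window held TGACG at 1 place, on the reverse strand. The Pcx window held ACGTG at 2 places, at the first of which CACGTG carries it on both strands. Neither motif was found in the windows of Fbp1, Ldhb and Eno2. RefSeq windows were found for 51 of the 52 genes, with 73 windows in all. In the 250 bases before the start, 12 of 25 glycolysis genes, 2 of 6 gluconeogenic genes and 6 of 20 TCA cycle genes had a window with ACGTG. The share of all genes counted this way was not taken, and a gene with several windows has more chances to hold the motif. Counted by window, the motif was in 39.5% of the glycolysis windows, 28.6% of the gluconeogenic windows and 39.3% of the TCA cycle windows, beside 16.6% of all 32851 windows. Ogdh alone gave 6 of the 28 TCA cycle windows, all with ACGTG, and without it the share was 22.7%. The glycolysis share likewise counts repeated windows of Aldoa, Pfkm and Pfkfb3. TGACG was in 18.4%, 28.6% and 39.3% of the windows of the 3 pathways and in 17.8% of all windows, with 27.3% in the TCA cycle windows without Ogdh. A match is only a match of letters.

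The total count per kidney ran from 17917491 to 23847090. Cd5l itself had 0 counts in all 9 CD5L KO kidneys and 3 to 15 counts in the 10 WT kidneys, so the labels fit the targeted gene in direction, although its level was low everywhere. Levels of a gene across kidneys are given below as CPM, counts scaled to a common library total after TMM correction for composition. The libraries of 2 kidneys in the CD5L KO rCD5L group stood apart. Replicate 4 had a summed CPM of 58250 for 12 proximal tubule markers, where the other 18 kidneys had 3941 to 10500, and it had the lowest sums of macrophage and fibroblast markers. Replicate 3 had a summed CPM of 56.1 for 5 skeletal muscle markers, where the others had 1.42 to 3.63, and the highest CPM of CT010467.1, 6816, where the others had 298 to 3101. Results that rest on these libraries are given with and without them, a choice made after the data were seen.

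Levels of different genes were compared per length, as the FPKM values deposited by the authors (fragments scaled to gene length and library size). Ldhb, the lactate dehydrogenase subunit of heart and kidney, had the highest level of all members, with a median of 909.6 FPKM over the 19 kidneys, and was above Ldha, the muscle-type subunit, in 19 of 19 kidneys, by 4.02 to 6.27 times. Aldoa (aldolase A, median 226 FPKM) and Tpi1 (triose phosphate isomerase, 145) were also among the most abundant glycolytic transcripts. Hk1 was above Hk2, the inducible hexokinase, in 19 of 19 kidneys, at medians of 15.4 and 2.47 FPKM. Pkm exceeded Pklr, the liver-type pyruvate kinase, in all 19, at 77.9 and 16.8 FPKM. The 3 phosphofructokinase genes were close, with medians of 11.4 (Pfkl), 9.6 (Pfkm) and 8.6 FPKM (Pfkp), and their order changed between kidneys, Pfkl being above Pfkm in 16 and Pfkm above Pfkp in 17 of 19. Eno1, the general enolase, had 108 FPKM, and Eno2, the neuronal enolase, 2.46. Among gluconeogenic genes, cytosolic Pck1 (61.6 FPKM) was above mitochondrial Pck2 (6.09) and Fbp1 (59.2) above Fbp2 (13.3) in all 19 kidneys. Mdh1, the cytosolic malate dehydrogenase, was the highest of the TCA group, at 142 FPKM, above mitochondrial Mdh2, at 47.0, in 19 of 19 kidneys. Idh1 and Idh2 could not be ordered, since each was the higher in part of the kidneys (Idh1 in 10 of 19). Suclg2 and Suclg1, subunits of succinyl-CoA synthetase, also changed places, with Suclg2 higher in 12 of 19.

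The comparison of CD5L KO with WT mice, both given PBS, asks what the absence of CD5L does in the obstructed kidney. All 53 member rows passed the filter on low counts in each of the 4 comparisons. Of these, 8 were called (edgeR quasi-likelihood test, Benjamini-Hochberg adjusted p under 0.05), 6 higher and 2 lower in CD5L KO. Among all 17579 genes tested 10.5% were called, 5.13% higher and 5.4% lower. At an unadjusted p under 0.05 there were 21 member rows, beside 26.6% of all genes. The 6 higher genes were Ldhb and Pgk1 of glycolysis and Suclg1, Sucla2, Dld and Mdh1 of the TCA group. The 2 lower ones were Eno2 and Pfkp of glycolysis. In glycolysis 2 of 26 rows rose, 2 fell and 22 did not pass, with 6 log2 fold changes above 0 and a median of -0.15. In gluconeogenesis 0 of 6 genes passed, with a median log2 fold change of 0.05. In the TCA group 4 of 21 genes rose, 0 fell and 17 did not pass, with 14 log2 fold changes above 0 and a median of 0.10. Over all genes tested 49.3% of the log2 fold changes were above 0, with a median of -0.00464. The KO kidneys were all above the WT kidneys in 6 member rows and all below in 2, where 7.26% and 6.84% of all genes did so.

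Eno2 (chr6:124760053-124769673, minus strand, GRCm38), an enolase known from neurons and neuroendocrine cells, had the largest fold change of the 8. Its CPM was 15.1, 18, 18.9, 18.5 and 14.8 in WT PBS replicates 1 to 5 and 13.2, 11.8, 11.4 and 10.3 in CD5L KO PBS replicates 1 to 4. All 4 KO kidneys lay under the lowest WT kidney. The log2 fold change was -0.55 ± 0.105 (SE, adjusted p = 0.00873, edgeR). Pfkp (chr13:6579768-6648777, minus strand), the platelet-type phosphofructokinase and the rate-setting step of glycolysis in many cell types, had CPM of 157, 142, 159, 151 and 154 in WT and 132, 118, 118 and 132 in CD5L KO. Again the groups did not overlap, and the log2 fold change was -0.29 ± 0.06 (SE, adjusted p = 0.0112, edgeR). Pfkp overlaps Pitrm1 on the other strand, and with the strand setting of the counting not given, their reads cannot be told apart.

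Ldhb (chr6:142490249-142507957, minus strand) had CPM of 1532, 1437, 1781, 1323 and 1718 in WT PBS and 1882, 1942, 1957 and 2066 in CD5L KO PBS. Every KO kidney was above every WT kidney, and the log2 fold change was 0.33 ± 0.08 (SE, adjusted p = 0.0291, edgeR). Ldha, its partner subunit, had 597, 689, 707, 640.4 and 641 CPM in WT and 643, 653, 749 and 697 in CD5L KO, with overlapping groups and a log2 fold change of 0.06 (adjusted p = 0.603, edgeR). The Ldhb-to-Ldha ratio of FPKM lay between 4.35 and 5.65 in WT PBS and between 5.51 and 6.27 in CD5L KO PBS. After rCD5L it lay between 4.99 and 5.57 in WT and between 4.02 and 6.19 in CD5L KO, so that these groups overlapped. The CD5L KO median was 5.61, above the highest WT kidney, and only CD5L KO rCD5L replicates 3 and 4 lay within or below the WT range. Pgk1 (chrX:106187100-106203699, plus strand), phosphoglycerate kinase, an ATP-making enzyme of lower glycolysis, had 272, 325, 331, 300.0 and 292 CPM in WT and 333, 347, 388 and 369.7 in CD5L KO. Its lowest KO kidney was just above the highest WT kidney, and the log2 fold change was 0.24 ± 0.07 (SE, adjusted p = 0.0454, edgeR).

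Suclg1 (chr6:73248382-73276911, plus strand) encodes the alpha subunit that both forms of succinyl-CoA synthetase share, and Sucla2 (chr14:73525319-73596142, plus strand) the beta subunit of the ATP-forming enzyme. Suclg1 had 149.9, 152, 173, 151 and 159 CPM in WT PBS and 178, 188, 194 and 199 in CD5L KO PBS, and its log2 fold change was 0.27 ± 0.06 (SE, adjusted p = 0.0143, edgeR). Sucla2 had 102, 106, 122, 97.1 and 109.5 CPM in WT and 123, 127, 142 and 125 in CD5L KO, with a log2 fold change of 0.26 ± 0.07 (SE, adjusted p = 0.0329, edgeR). Both genes were higher in each KO kidney than in any WT kidney, for Sucla2 by a narrow gap. Suclg2, the beta subunit of the GTP-forming enzyme, did not pass. Dld (chr12:31331277-31351453, minus strand), the dihydrolipoamide dehydrogenase shared by the pyruvate and 2-oxoglutarate dehydrogenase complexes, had 160.2, 160.0, 187, 156 and 174 CPM in WT and 190.5, 198, 223 and 198 in CD5L KO. Its groups did not overlap either, with a log2 fold change of 0.27 ± 0.07 (SE, adjusted p = 0.0259, edgeR). Mdh1 (chr11:21556787-21572367, minus strand), the cytosolic malate dehydrogenase of the malate-aspartate shuttle, had 388, 392, 528, 396 and 445 CPM in WT and 518, 551, 617 and 528 in CD5L KO. WT PBS replicate 3 reached the range of the KO kidneys, and the log2 fold change was 0.36 ± 0.09 (SE, adjusted p = 0.0283, edgeR). Mdh1 overlaps Wdpcp on the other strand. In all, 25 of the 53 rows overlap another annotated gene. Ldhb, Pgk1, Eno2, Dld and Suclg1 do not.

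Cs, citrate synthase, which brings acetyl-CoA into the cycle, went the other way in level without passing in the main fit. It had 195, 211, 229.5, 211 and 226 CPM in WT PBS and 184, 178, 197 and 191 in CD5L KO PBS (log2 fold change -0.20 ± 0.06 SE, adjusted p = 0.0506, edgeR). DESeq2, limma on FPKM, the filter of 10 counts in every kidney and the fit without WT PBS replicate 1 each called 1 TCA gene lower. Together with Cs, 13 rows had an unadjusted p under 0.05 without passing, with adjusted p of 0.0506 to 0.179 (edgeR). Idh1 (log2 fold change 0.27), Pdhb (0.18), Idh3g (0.20), Fh1 (0.25) and Pdha1 (0.15) of the TCA group and Tpi1 (0.18) of glycolysis were above 0. The lactate exporter Slc16a3 (-0.84), Pfkfb4 (-0.19), Hk2 (-0.47), Pklr (-0.21), Gpi1 (-0.13) and Pfkm (-0.12), all of glycolysis, were below it. Hk2, the inducible hexokinase, ranged from 16.2 to 31.0 CPM in WT and from 13.9 to 17.2 in CD5L KO (log2 fold change -0.47, adjusted p = 0.141, edgeR). Hk1 (-0.18) and Pkm (-0.18) had adjusted p of 0.221 and 0.235 (edgeR). Of the gluconeogenic genes, Pck1 had 162, 289, 422 and 390.1 CPM in CD5L KO PBS and 211 to 354 in WT PBS, and G6pc had 22.0, 51.2, 55.6 and 59.4 against 30.9 to 63.3. Their log2 fold changes, 0.22 and -0.01, had standard errors of 0.23 and 0.28, so that differences of this size could not be resolved among these 9 kidneys. Fbp2 had 28.3, 34.5, 22.2 and 26.0 CPM in CD5L KO PBS and 27.1, 21.7, 25, 20.6 and 24.2 in WT PBS (log2 fold change 0.22, adjusted p = 0.267, edgeR).

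Of 45 tested genes that were listed with the same pathways but are no members, 2 rose and 1 fell, a smaller share than the 10.5% of all genes. Sdhb and Sdhd, subunits of succinate dehydrogenase, the step after succinyl-CoA synthetase, rose by log2 fold changes of 0.31 ± 0.07 and 0.32 ± 0.06 (SE, adjusted p = 0.0147 and 0.00873, edgeR). Pdk4, the fasting-induced pyruvate dehydrogenase kinase, had a log2 fold change of -0.48 ± 0.13 (SE, adjusted p = 0.0345, edgeR). Among 19 regulators of these pathways 0 were called, with 5 at an unadjusted p under 0.05, a share close to the 26.6% of all genes. Of 13 hypoxia-induced genes 1, the histone demethylase Kdm3a, was lower (log2 fold change -0.26, adjusted p = 0.0387, edgeR).

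Markers of other cells differed between the same kidneys. Of 8 fibroblast and myofibroblast markers 5 were lower in CD5L KO, and their summed CPM was 3003 to 4152 in CD5L KO PBS and 4253 to 6556 in WT PBS. Of 5 endothelial markers 3 were lower, with sums of 421.8 to 472.1 and 507.5 to 584.6. Of the 12 proximal tubule markers 0 were called, and the sums overlapped, at 4392 to 9544 and 4547 to 9372. Wt1, 1 of 4 podocyte markers, and Csf1r, 1 of 8 macrophage markers, were lower. The 5 urothelial and 5 adipocyte markers all had log2 fold changes above 0 (medians 0.79 and 0.77) with 0 called, and 0 were called among the markers of the distal nephron, collecting duct, neutrophils, T cells, B and plasma cells, skeletal muscle and red cells. In the other comparisons 0 markers were called. None of these markers was at 0 in all kidneys. Their part in the difference of the members was not tested. DESeq2 called 14 members, beside 8.07% of 31568 genes, a base that includes genes below the low-count filter of edgeR. With the replicate number as a block, edgeR called 13 (12.2% of all genes). A fit with an offset for gene length, which called 7.42% of all genes, called 4 members, Eno2, Dld, Suclg1 and Sucla2, leaving Ldhb (adjusted p = 0.129), Pgk1 (0.135), Mdh1 (0.0547) and Pfkp (0.0810) without a call (edgeR). A fit of all 19 kidneys, whose common spread includes CD5L KO rCD5L replicates 3 and 4, called 0 members for this comparison and 12 genes in all (0.065%). Leaving out 1 kidney at a time gave 3 to 13 called members, while the share of all genes called moved between 5.81% and 11.8%. The lowest count, 3, came without CD5L KO PBS replicate 2 or 3 or WT PBS replicate 2 or 4, and 5 came without CD5L KO PBS replicate 1 or 4. The highest, 13, came without WT PBS replicate 3, which had the highest proximal tubule sum of its group. Eno2, Pfkp and Suclg1 were called in all 9 of these fits, Dld in 5, Mdh1 in 4, Ldhb in 3, and Pgk1 and Sucla2 in 1 each.

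**Figure D1:**
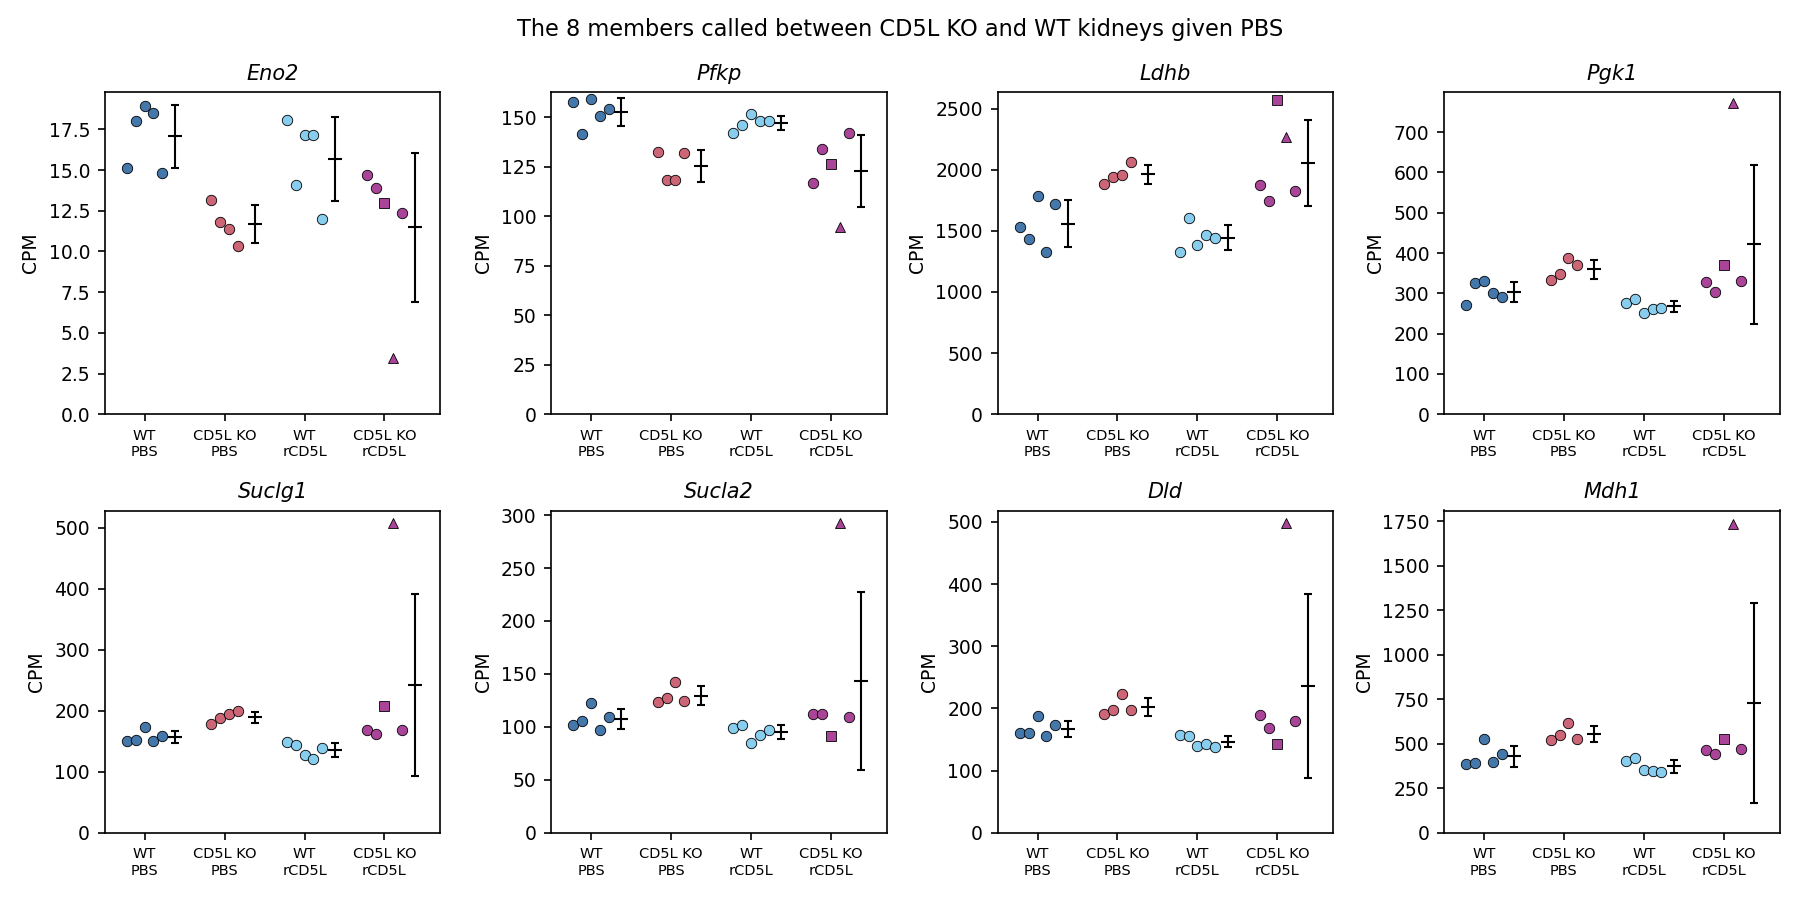
CPM of the 8 members called for genotype under PBS, in each kidney of the 4 groups (linear axes from 0). Points are kidneys, the bar beside them is the mean ± SD, and the square and the triangle are CD5L KO rCD5L replicates 3 and 4; in 7 of the 8 panels the PBS groups do not overlap, Mdh1 being the exception, and the triangle reaches 1732 CPM for Mdh1 and 498 for Dld.

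The comparison of CD5L KO with WT mice, both given rCD5L, is the same genotype contrast in 10 other kidneys. Here 0 of 53 member rows and 0 of 17360 genes were called by edgeR, with 22 member rows at an unadjusted p under 0.05. At that threshold the share of all genes was 17.8%. A fit of all 19 kidneys called 11 members for this comparison, 10 higher and, for Pfkfb3, 1 lower, beside 7% of all genes. All 8 members called under PBS had a log2 fold change of the same sign here, as did 32 of the 53 rows. Over all genes the sign was the same for 67.6%, and for 92.3% of those called under PBS. Ldhb had 1875, 1743, 2573, 2268 and 1822 CPM in CD5L KO rCD5L and 1329, 1605, 1381, 1464 and 1443 in WT rCD5L. Every KO kidney was again above every WT kidney, with a log2 fold change of 0.51 ± 0.14 (SE, adjusted p = 0.26, edgeR). DESeq2 gave a p-value to 50 of the 53 member rows and called Ldhb as its only member (adjusted p = 0.0452, DESeq2). In all it called 70 of 31159 genes (0.225%), a base without the low-count filter. Mdh1 had 464, 445, 527, 1732 and 469 CPM against 401, 419.9, 353, 348 and 341. Suclg1 had 168, 161, 208, 508 and 169 against 148, 145, 127, 120.3 and 139. Pgk1 had 328, 304, 371, 772 and 332 against 276, 286, 251, 262 and 265. These groups did not overlap in any of the 3 genes, and replicate 4 was the farthest out in each. Without overlap, 5 of 26 glycolysis rows and 6 of 21 TCA genes were higher in CD5L KO and 2 glycolysis rows were lower, where 4.29% of all genes were higher in every KO kidney and 3.09% lower. Aldoa, Ldha, Pdhb, Suclg2 and Fh1 were among the higher ones. Pfkp, at 117, 134, 126, 94.4 and 142 CPM against 142, 146, 152, 148 and 148, also kept its groups apart, with the highest KO kidney just under the lowest WT kidney.

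Eno2 had 14.7, 13.9, 13.0, 3.44 and 12.3 CPM in CD5L KO rCD5L and 18.1, 14.1, 17.2, 17.1 and 12.0 in WT rCD5L, with overlapping groups. Dld had 189, 169, 142, 498 and 180.5 against 156, 156, 140.4, 143 and 137, and Sucla2 had 113, 112, 91.2, 293 and 109 against 98.7, 102, 85.1, 92.8 and 97.2. In both genes only replicate 3 of the KO group fell within the WT range. Pfkfb3, whose enzyme makes the activator of phosphofructokinase, had 40.2, 40.8, 41.2, 45.7 and 47.2 CPM in CD5L KO rCD5L and 56.0, 53.9, 55.7, 48.1 and 56.9 in WT rCD5L, with no overlap (log2 fold change -0.33 ± 0.09 SE, adjusted p = 0.26, edgeR). Tpi1 had 470.5, 479.9, 846, 1088 and 515 CPM against 416, 445, 395, 422 and 399.8 (log2 fold change 0.71, adjusted p = 0.26, edgeR). Idh3g, a subunit of the NAD-dependent isocitrate dehydrogenase, had 144, 139, 178, 394 and 146 against 135, 116, 115, 127 and 129. Both genes were higher in each KO kidney.

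Without CD5L KO rCD5L replicates 3 and 4, the fit over the remaining 8 kidneys called 644 of 18012 genes (3.58%) and 7 of the 53 member rows. Ldhb (log2 fold change 0.32 ± 0.06 SE), Mdh1 (0.29 ± 0.07), Pgk1 (0.25 ± 0.06), Dld (0.28 ± 0.06), Suclg1 (0.28 ± 0.07) and Fh1, fumarase (0.23 ± 0.06), rose, with adjusted p of 0.0243, 0.0455, 0.0381, 0.0373, 0.0481 and 0.0465 (edgeR). Pfkfb3 fell by 0.35 ± 0.08 on the log2 scale (SE, adjusted p = 0.0326, edgeR). The genes called in both sets of kidneys, which have no kidney in common, were 5, Ldhb, Mdh1, Pgk1, Dld and Suclg1; they were 5 of the 8 called under PBS and 5 of the 7 called here. Over all genes tested in both fits, 351 were called in both, 19% of those called under PBS and 54.7% of those called here. Sucla2 (0.22, adjusted p = 0.0674), Pfkp (-0.18, 0.142) and Eno2 (-0.21, 0.408) had the sign they had under PBS and did not pass. In this fit 36 of the 53 rows had the same sign as under PBS, as did 71.8% of all genes. The endothelial marker sums were apart here as well, at 434.5, 424 and 441.3 CPM in the CD5L KO rCD5L kidneys of this fit and 466.1 to 509.4 in WT rCD5L. The fibroblast sums of these kidneys were 4792, 3546 and 2885 CPM, against 4419 to 6225 in WT rCD5L, so that only the highest KO kidney fell within the WT range. The sums of 4 podocyte markers were 432.9, 397.1 and 378.7 CPM, against 434.9 to 525.3, and did not overlap. The proximal tubule sums were 5535, 5211 and 5030 CPM, against 3941 to 5913. They overlapped, with only WT rCD5L replicate 2 above the KO kidneys. The part of these markers in the 7 calls was not tested.

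**Figure D2:**
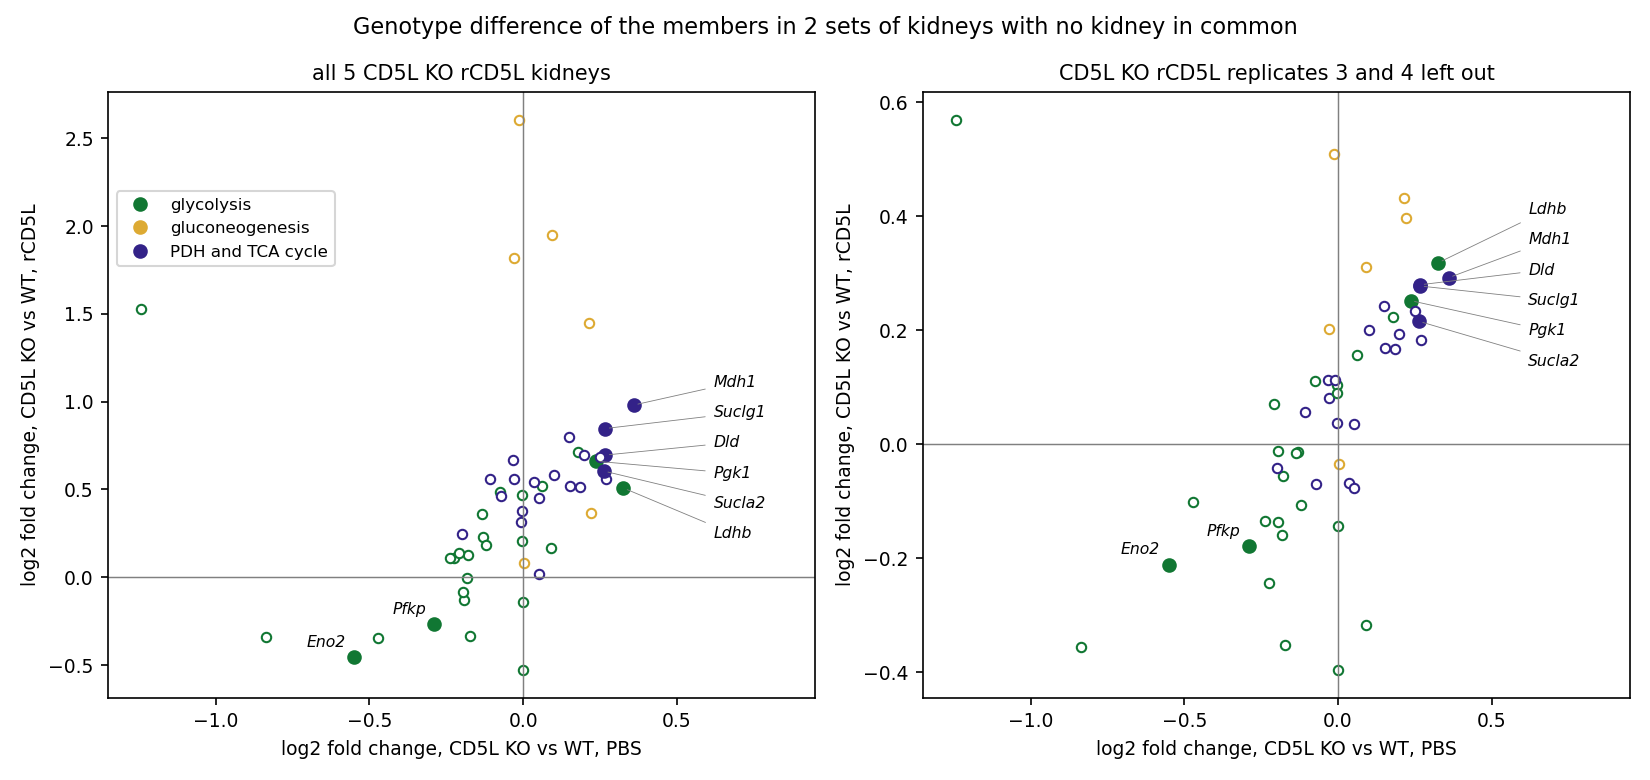
Log2 fold change of CD5L KO against WT for every member row, in kidneys given PBS (horizontal) and in kidneys given rCD5L (vertical), with all 5 CD5L KO rCD5L kidneys on the left and without replicates 3 and 4 on the right. Filled, named points are the 8 members called under PBS; all 8 have the same sign on both axes in both panels, and on the left the gluconeogenic genes reach a log2 fold change of 2.61 (G6pc).

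The comparison of rCD5L with PBS in WT mice asks what added protein does where the mouse makes its own. By edgeR 0 of 17455 genes were called and 0 of 53 member rows, and at an unadjusted p under 0.05 there were 25 member rows, 24 of them lower after rCD5L. Over all genes that share was 16%, with 8.31% higher and 7.71% lower. DESeq2, whose base includes genes below the low-count filter, called 508 of 31800 genes (1.6%) and 7 members. All 7 were lower, namely Eno1, Tpi1, Ldha, Pck1, Mdh2, Idh2 and Idh3b. The median log2 fold change was -0.10 in glycolysis, where 5 of 26 rows were above 0, -0.48 in gluconeogenesis, where 0 of 6 were, and -0.15 in the TCA group, where 2 of 21 were. Over all genes it was 0.00456, and 51.3% of genes were above 0.

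The gluconeogenic genes had the lowest median of the 3 pathways. Pck1, the enzyme that commits carbon to glucose, had 211, 236, 354, 282 and 271 CPM in WT PBS and 221, 182, 182, 135 and 197 in WT rCD5L. The groups overlapped by 1 kidney, and the log2 fold change was -0.55 ± 0.14 (SE, adjusted p = 0.114 by edgeR, 0.0415 by DESeq2). Fbp1 had 101, 116, 196, 141 and 149 CPM against 112, 122, 82.7, 83.7 and 91.7 (-0.50 ± 0.15 SE, adjusted p = 0.144, edgeR). G6pc, the last step of glucose release, had 33.6, 30.9, 62.0, 46.2 and 63.3 against 27.5, 34.9, 30.3, 14.9 and 33.5 (-0.73 ± 0.23 SE, adjusted p = 0.149, edgeR). Pcx had 77.0, 114, 189.5, 141 and 136 against 108, 113, 78.2, 76.4 and 94.6 (-0.47 ± 0.18 SE, adjusted p = 0.231, edgeR). In each of the 4 genes the upper WT PBS kidneys lay above all WT rCD5L kidneys while the lower ones mixed with them. The 12 proximal tubule markers had log2 fold changes of -0.75 to -0.14 in the same comparison, with a median of -0.47, 6 at an unadjusted p under 0.05 and 0 called. Their sums were 4547 to 9372 CPM in WT PBS and 3941 to 5913 in WT rCD5L. Their part in the gluconeogenic values was not tested.

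The genes with the smallest p in glycolysis and the TCA group had smaller log2 fold changes than these 4 genes, with smaller errors. Tpi1 had 448, 489.7, 535, 485 and 469 CPM in WT PBS and 416, 445, 395, 422 and 399.8 in WT rCD5L (log2 fold change -0.21 ± 0.05 SE, adjusted p = 0.117 by edgeR, 0.0112 by DESeq2). Eno1 had 681, 814, 785, 744 and 712 against 643, 678, 630.3, 629 and 631 (-0.20 ± 0.05 SE, adjusted p = 0.119 by edgeR, 0.0112 by DESeq2). Idh3b, another subunit of the isocitrate dehydrogenase, had 164, 167, 183, 164 and 166 against 161, 151, 137, 139.5 and 138 (-0.20 ± 0.06 SE, adjusted p = 0.121 by edgeR, 0.0222 by DESeq2). Every WT rCD5L kidney was below every WT PBS kidney for these 3 genes. That held for 6 member rows in all, 3 of glycolysis and 3 of the TCA group, and for 2.11% of all genes. Ldha had 561, 607, 544, 595 and 568 CPM in WT rCD5L, and overlapped WT PBS by 1 kidney (-0.17, adjusted p = 0.147, edgeR). Mdh2 had 187, 189, 178, 184 and 203 CPM in WT rCD5L against 201, 208, 236, 217 and 212 in WT PBS, and Idh2 had 216, 200.1, 203, 193 and 196 against 214, 217, 255, 242 and 231. Ldhb, called between the genotypes, had a log2 fold change of -0.10 (adjusted p = 0.593, edgeR), and Pkm, Hk1 and Hk2 had -0.10, 0.09 and -0.02. Of the 45 further genes of these pathways 0 were called, with 11 lower and 0 higher at an unadjusted p under 0.05.

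**Figure D3:**
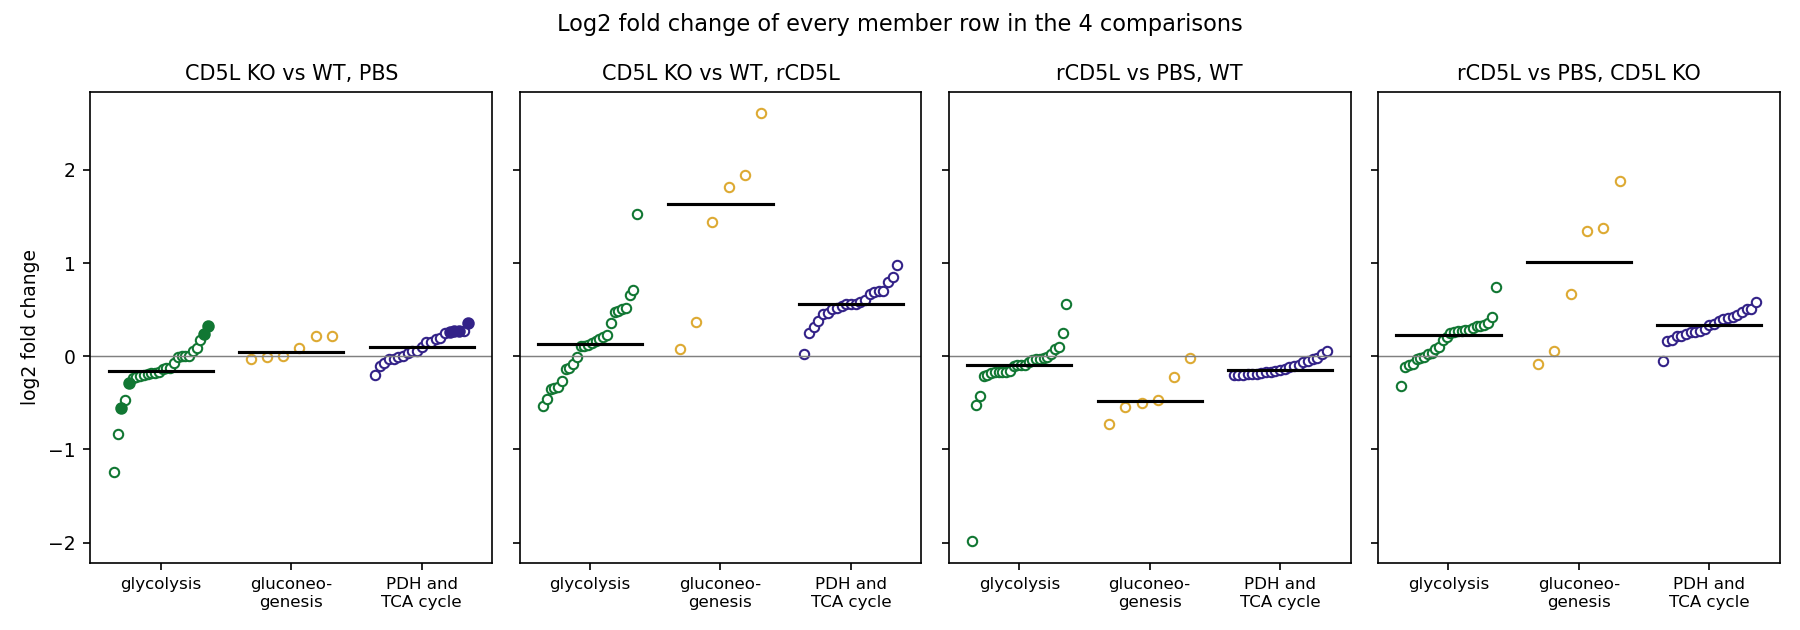
Log2 fold change of each of the 53 member rows in the 4 comparisons, by pathway; filled points were called, open points were not, and black lines are medians. Called points are in the CD5L KO against WT comparison under PBS (8 rows), and the gluconeogenic medians are -0.48 for rCD5L in WT and 1.01 for rCD5L in CD5L KO, where 1 kidney carries the value.

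The comparison of rCD5L with PBS in CD5L KO mice asks what the protein does where the mouse lacks it. No gene of 17467 was called by edgeR, with 502 (2.87%) at an unadjusted p under 0.05. DESeq2 called 9 of 30845 genes (0.0292%) and 0 of the 50 member rows to which it gave a p-value. By edgeR, 0 of the 53 member rows were called and 0 were under 0.05 unadjusted. Without CD5L KO rCD5L replicates 3 and 4, 0 genes were called and 10 member rows were under 0.05 unadjusted, beside 9.76% of all genes in both directions together. Of these rows 7 were TCA genes, all lower after rCD5L, and in glycolysis 2 were higher and 1 lower. With all kidneys the log2 fold changes were nevertheless large, at 1.37 ± 0.69 for Pcx, 1.88 ± 0.96 for G6pc, 1.34 ± 0.73 for Fbp1 and 0.67 ± 0.61 for Pck1 (SE). The values by kidney show where they came from. Fbp1 had 130.1, 114, 232, 1260 and 124 CPM in CD5L KO rCD5L replicates 1 to 5 and 107, 137, 203 and 154 in CD5L KO PBS. G6pc had 33.5, 28.2, 51.1, 667 and 59.9, Pck1 262, 176, 258, 1453 and 311, and Pcx 110.5, 105, 331, 978 and 112 against 81.4, 109.8, 188 and 138. In all 4 genes replicate 4 was above every other kidney of the series. Of the other kidneys of the group, replicate 3 was above every CD5L KO PBS kidney for Fbp1 and Pcx and replicate 5 just above them for G6pc, and the rest lay within the range of those given PBS. Without replicate 4 the log2 fold changes were 0.37 for Pcx, -0.11 for G6pc, 0.01 for Fbp1 and -0.32 for Pck1. Without replicates 3 and 4 they were -0.24, -0.21, -0.28 and -0.33, and all 6 gluconeogenic genes were below 0, with a median of -0.22 and 0 called.

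Replicate 4 was the highest kidney for 20 of the 21 TCA genes, for 4 of the 6 gluconeogenic genes and for 6 of the 26 glycolysis rows, and the lowest for 7 glycolysis rows, among them Eno2 (3.44 CPM). Dlst, the succinyltransferase of the 2-oxoglutarate dehydrogenase complex, had 174, 186, 258, 479.5 and 195 CPM in CD5L KO rCD5L and 165, 178, 202 and 194 in CD5L KO PBS. Ogdh, the first enzyme of that complex, had 308, 247, 456, 659 and 249 against 243, 228, 299.6 and 269, and Cs had 184, 195, 275, 322 and 205 against 184, 178, 197 and 191. The log2 fold changes of these 3 genes were 0.51, 0.58 and 0.35, each with an adjusted p of 0.897 (edgeR). The median of the TCA group fell from 0.33 with all kidneys to -0.07 without replicate 4 and -0.11 without replicates 3 and 4. Replicate 3 was the highest kidney for 10 of the 26 glycolysis rows and 0 TCA genes. Pkm, which muscle and most non-liver cells use, had 475, 459, 806, 421 and 452 CPM in CD5L KO rCD5L and 457, 448, 495 and 430.3 in CD5L KO PBS. Eno1 had 630.1, 708, 1225, 1181 and 759, Hk1 159, 152, 218, 166 and 144, and Pklr 81.3, 64.2, 106, 55.2 and 70.1. Pgam1, phosphoglycerate mutase, had 139.8, 122, 208, 236 and 127 against 112, 111, 153 and 129. The part of muscle or tubule RNA in these 2 libraries was not tested.

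Across the kidneys, Fbp1 and Pcx were ordered much like the proximal tubule markers. The 4 kidneys with the highest marker sums, CD5L KO rCD5L replicates 4 (58250 CPM) and 3 (10500), CD5L KO PBS replicate 3 (9544) and WT PBS replicate 3 (9372), were also the 4 highest for Fbp1, in that order, and the 4 highest for Pcx. Pck1 and G6pc were also highest in replicate 4, but CD5L KO rCD5L replicate 3, which came next by marker sum, was only in place 10 for Pck1 and 8 for G6pc. Pck2, the mitochondrial enzyme, had its lowest value in replicate 4 and its highest in replicate 3, and Fbp2 had its highest value in CD5L KO PBS replicate 2. The genes made in the same library share its depth and composition, so this is a description of 19 libraries.

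**Figure D4:**
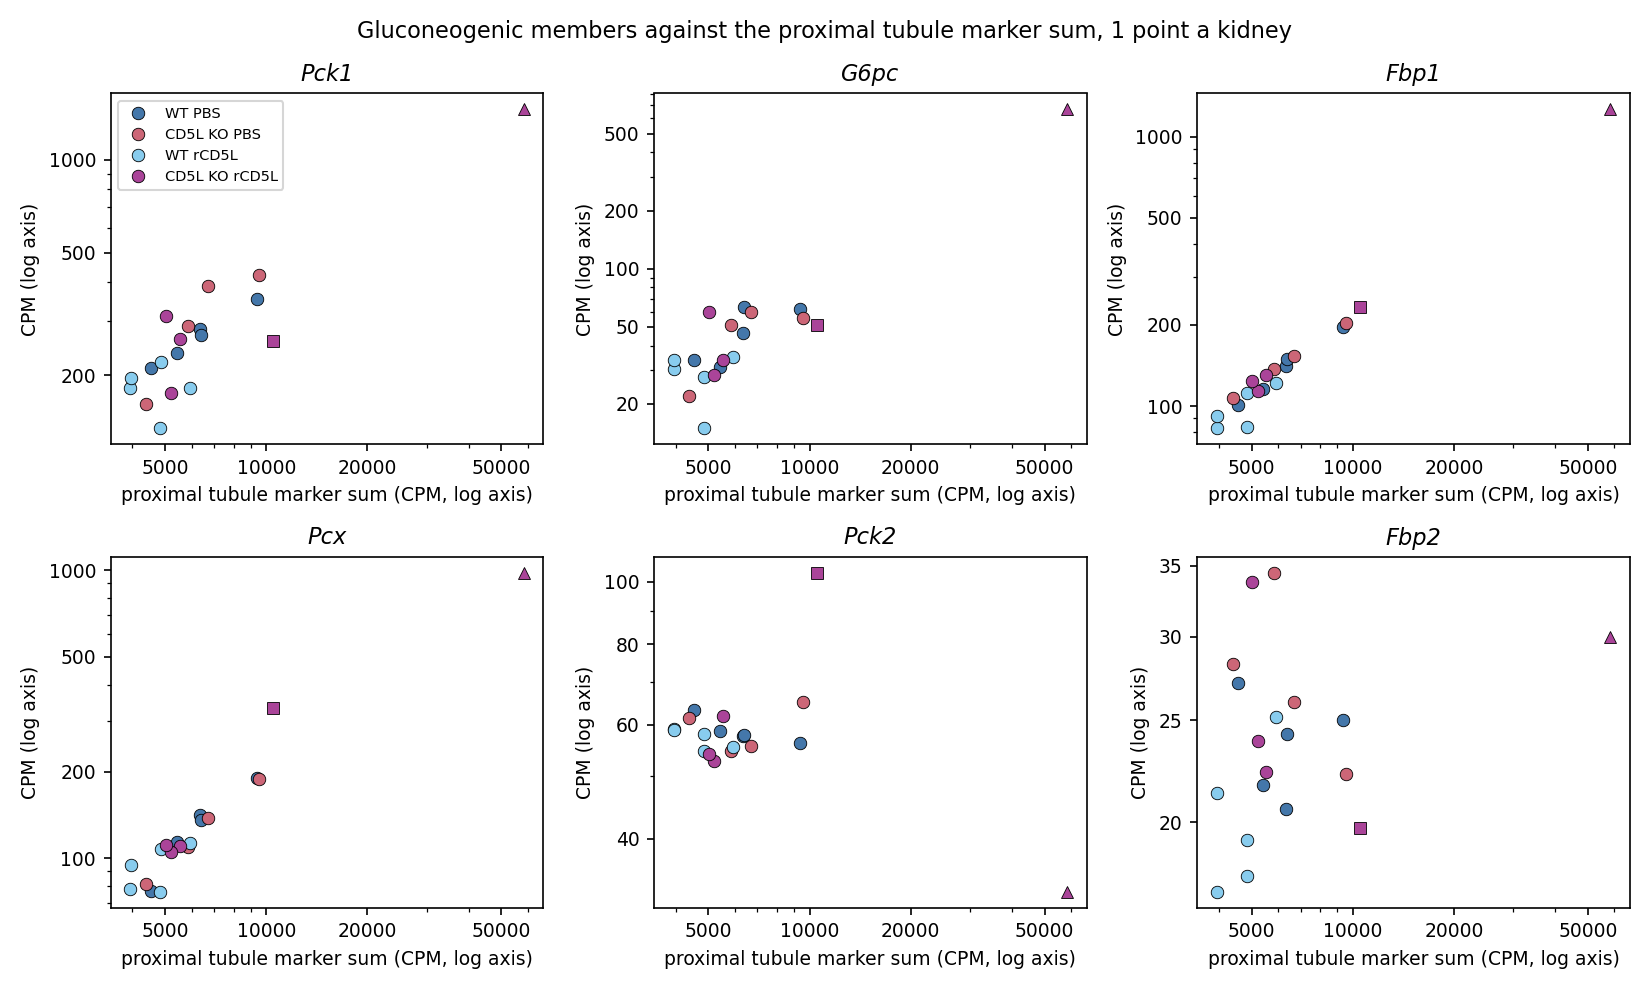
CPM of the 6 gluconeogenic genes against the summed CPM of 12 proximal tubule markers, 1 point a kidney, all axes logarithmic; the square and the triangle are CD5L KO rCD5L replicates 3 and 4. Fbp1 and Pcx climb with the marker sum up to 1260 and 978 CPM in the triangle, Pck1 and G6pc scatter more, and Pck2 and Fbp2 have no such course.

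The interaction of genotype and rCD5L, tested on all 19 kidneys, called 0 of 18454 genes and 0 of 53 member rows by edgeR, and 0 genes by DESeq2. At an unadjusted p under 0.05 there were 12 member rows, all with a larger log2 fold change after rCD5L in CD5L KO than in WT, where 6.25% of all genes passed that threshold, 4.41% in this direction. Of these 12 rows, the largest estimates were those of G6pc (2.63 ± 1.003 SE), Fbp1 (1.87 ± 0.76 SE) and Pcx (1.87 ± 0.73 SE), each with an adjusted p of 0.731 (edgeR). Without CD5L KO rCD5L replicates 3 and 4 there was 1 such row, and the median estimate of all rows was 0.09 in place of 0.39. Pathway medians without these kidneys were 0.10 in glycolysis, 0.22 in gluconeogenesis and 0.01 in the TCA group.

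Gapdh, the glycolytic enzyme often taken as a reference gene, needs a separate account, and was chosen for it after its values were seen. It had 125, 87.7, 12.1, 9.52 and 7.60 CPM in WT PBS, 7.46, 7.95, 60 and 7.91 in CD5L KO PBS, 7.80, 6.97, 9.70, 7.05 and 28.5 in WT rCD5L, and 4.90, 39.0, 6.56, 110.4 and 10.2 in CD5L KO rCD5L. Each group thus held 1 or 2 high kidneys, and the highest value was 25.6 times the lowest. Its neighbours in the pathway, Tpi1 and Pgk1, spanned 2.76 and 3.07 times, and Eno1 1.95 times. Gapdh was counted 110 to 2830 times per kidney where Pgk1 was counted 5274 to 10538 times, and its spread within groups was the largest of all 52 members, with an SD of 1.6 on the log2 scale, ahead of G6pc (1.06). How the counting treated reads that match near-identical copies is not given, and Gapdh has many pseudogene copies in the mouse genome. The part of this in the low and scattered counts was not tested. Gapdh is counted with the other glycolysis rows above, and it is 1 of the 24 rows that were lower after rCD5L in WT at an unadjusted p under 0.05. Eno1, Pgam1 and Ldha also have near-identical copies (Eno1b, Pgam1-ps2 and Ldha-ps2), whose CPM were 14.6 to 34.1, 0.734 to 2.93 and 0.598 to 3.52.

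**Figure D5:**
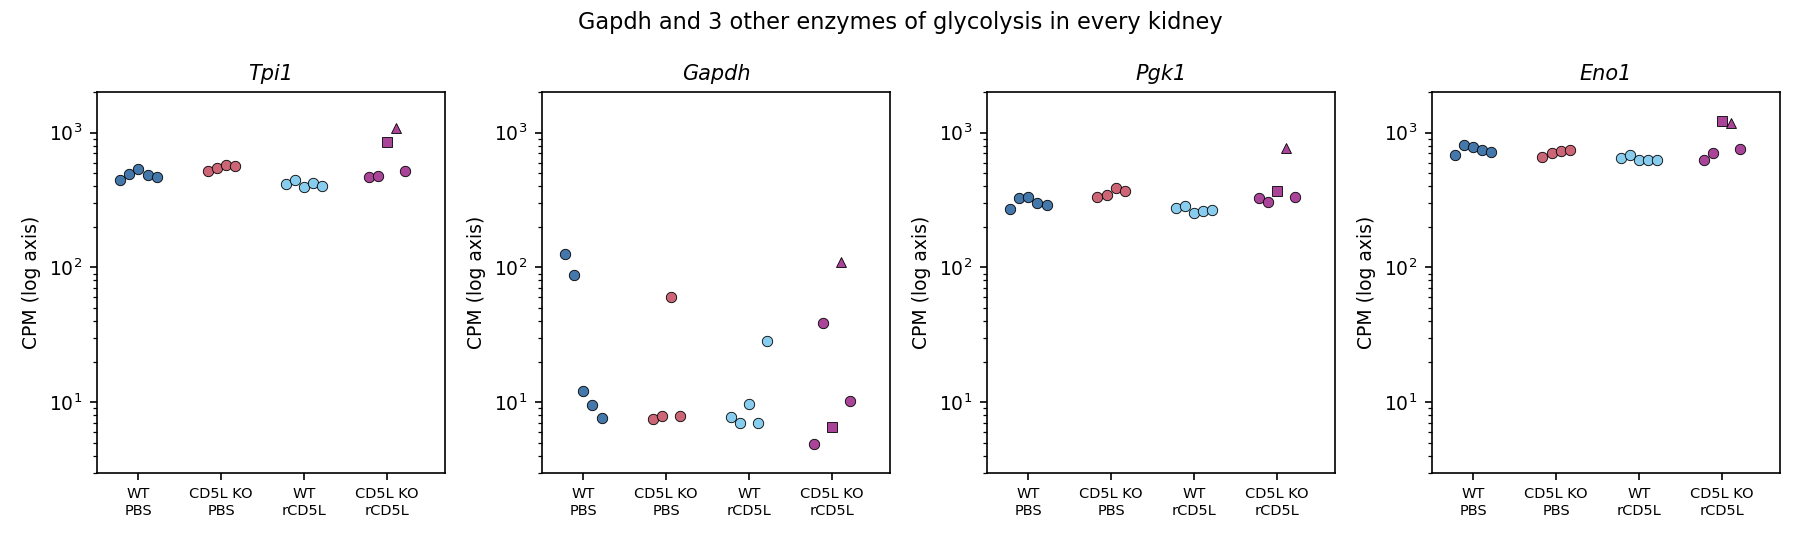
CPM of Tpi1, Gapdh, Pgk1 and Eno1 in every kidney on the same logarithmic axis; the square and the triangle are CD5L KO rCD5L replicates 3 and 4. Gapdh runs from 4.90 to 125 CPM with 1 or 2 high kidneys in each group, while the other 3 genes stay between 251 and 1225 CPM.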

How the data were processed

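Whole obstructed kidneys of 19 mice were measured by bulk RNA-seq from random-primed, 150-base paired-end libraries. The authors deposited raw counts per gene, made by trimming with Trimmomatic, alignment to GRCm38 with HISAT2 and counting with featureCounts; versions, the strand setting and the treatment of reads with several matches are not given in the sources used here. A second table deposited by the authors holds FPKM, counts scaled by gene length and library size, for the same genes; it was used to compare levels between genes and as an alternative. Kidneys were grouped by the labels, and 0 columns lacked a sample. The total count of 17917491 to 23847090 per kidney sets the precision of a count, a count of 0 allows up to 3, and such limits cover counting error only.

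The main test was the quasi-likelihood F test of edgeR 4.0.16 in R 4.3.3, with TMM factors and a minimum count of 10 in filterByExpr, on the 2 groups compared, and on all 4 groups for the interaction. The p-values were adjusted over all genes tested by Benjamini-Hochberg, and genes under 0.05 were called. SE is the log2 fold change divided by the square root of F. DESeq2 1.42.0, limma 3.58.1 on log2(FPKM + 1) and log2(FPKM + 0.1), other factors and filters, a gene length offset (lowess span 0.3), a replicate block and left-out kidneys were alternatives. DESeq2 was run on all genes without the low-count filter, and its shares are over the genes with a p-value. The edgeR test was tried on simulated counts first.

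Members and gene lists were chosen with earlier results of these data known. Named with values were the members called in any comparison, the 3 smallest p of each pathway in each comparison, and Hk1, Hk2, Pkm, Ldha, Pck1, Fbp1, G6pc and Cs; Gapdh, the FPKM levels, Fh1, the other members under an unadjusted p of 0.05 for genotype under PBS, the members named only for groups that do not overlap, and the further, regulator, hypoxia and marker genes are given outside this rule. Within groups, all 36 pairs of kidneys differed by more than counting noise (chi-square per degree of freedom 7.07 to 351). Proximal tubule, endothelial, fibroblast and other marker lists were summed per kidney as CPM. Nothing in the sources ties kidneys of the same number together.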

Additional observations from a re-analysis of the deposited data

Results flagged for a closer look

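Values of the named members and of the 3 pathway levels were looked at in each group for a kidney far from the others (Dixon's test at 95%, 128 groups of 4 or 5 kidneys). It marked 22, where chance marks about 1 group in 20. CD5L KO rCD5L replicate 4 held 16 of them. It was high for Mdh1 (1732 CPM), Dld (498), Suclg1 (507.9), Sucla2 (292.7), Idh3b (403.7), Idh3g (393.8), Idh2 (637.9) and Dlst (479.5) of the TCA group. It was high for Fbp1 (1260 CPM), Pck1 (1453), G6pc (667.3) and Pcx (977.6) of gluconeogenesis, and for Pgk1 (772.2) of glycolysis. It was low for Eno2, at 3.44 CPM where the rest of the group had 12.3 to 14.7. A pathway level is the median over its genes of log2 CPM relative to each gene's mean log2 CPM over the 19 kidneys. The gluconeogenesis level of this kidney was 2.67, where the rest of the group lay between -0.34 and 0.45. Its TCA level was 1.24, beside -0.09 to 0.11. The proximal tubule marker sum of the same library was 58250 CPM, and its part in these values was not tested.

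The other 6 marks were spread over 5 kidneys. Pkm was at 806 CPM in CD5L KO rCD5L replicate 3, where the rest of the group had 421 to 475; this library also had the high muscle marker sum. Idh3b was at 194.6 CPM in CD5L KO PBS replicate 3 and at 182.7 in WT PBS replicate 3, and Idh3g at 168 in WT PBS replicate 3. Eno1 was at 678.4 CPM in WT rCD5L replicate 2 and Pfkfb3 at 50.9 in CD5L KO PBS replicate 4.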

How the results depend on the processing

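Under PBS, CD5L KO against WT gave 8 called members as reported (1850 genes in all), 14 with DESeq2 (2549), 13 with the replicate block (2122) and 4 with the gene length offset (1305). It gave 5 with limma on FPKM at pseudocounts 1 and 0.1 (8.87% and 8.86% of all genes) and 3 to 13 with 1 kidney left out (1015 to 2062). It gave 0 with all 19 kidneys in 1 fit, whose pooled spread includes CD5L KO rCD5L replicates 3 and 4. With all 19 kidneys in the fit, 12 genes in all were called. Not every fit kept the lean to higher members. At both pseudocounts limma gave 2 higher and 3 lower, and the fit without WT PBS replicate 1 gave 3 and 5. The fits with 3 called members gave 1 higher and 2 lower. In the other fits with calls, more members were higher than lower. For rCD5L against PBS in WT, DESeq2 called 7 members beside 1.6% of its genes, and the fit without a low-count filter 1, Pck1, beside 0.43%. For CD5L KO against WT under rCD5L, DESeq2 called 1 member (0.225% of its genes) and the fit of all 19 kidneys 11 (7% of all genes). The fit without CD5L KO rCD5L replicates 3 and 4 called 7 (3.58%). Under PBS, RLE factors gave 8 members beside 10.6% of all genes, and the fit without a low-count filter 9 beside 5.03%. A filter of 10 counts in every kidney gave 9 beside 12.4%, and the block with the length offset 9 beside 8.4%. All other alternatives in the other comparisons and the interaction called 0. Where no construction of the fit shows the cause, the cause was not tested.

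Of the log2 fold changes that the text gives for members by the edgeR fits, 1354 values under the alternatives kept direction and side of the threshold, 53 lost a call, 50 gained one and 20 turned sign. For CD5L KO against WT under PBS, Fbp1 was -0.0001 with the length offset, and -0.083 to 0.24 with 1 kidney left out, and G6pc was 0.085 with the block, 0.041 with block and length offset, and -0.14 to 0.23 with 1 kidney left out. For rCD5L in WT, Hk2 was 0.017 with the block, 0.0096 and 0.022 with limma on FPKM at pseudocounts 1 and 0.1, and -0.12 to 0.13 with 1 kidney left out. For rCD5L in CD5L KO, Fbp1, G6pc, Pcx and Pck1 were -0.28, -0.21, -0.24 and -0.33 without replicates 3 and 4, and with 1 kidney left out G6pc was -0.11 to 2.15 and Pck1 -0.32 to 0.89, the lowest of both without replicate 4. The kidneys share a number across groups, but samples with the same number deviated together weakly or not at all (r of -0.186 to 0.174 over 18 pairs). Under PBS 4 of 8 kidneys correlated best with their own number. It was 2 of 8 for rCD5L in CD5L KO, and 0 of 10 for rCD5L in WT and for CD5L KO against WT under rCD5L. Nothing in the sources ties the numbers together, so they were not taken as pairs. The block moved the other counts of called members in no case. At 17917491 counts or more per kidney, counting error weighs most on the members with the lowest mean counts, the second Aldoa row, Aldoc, Hk3 and Eno3.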

Other observations

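Of the 2 rows listed for Aldoa, the lower one (chr7:126800790-126809108, minus strand) was listed at 0.365 to 1.33 FPKM, where the other had 196 to 408 FPKM.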
